A study of Oncorhynchus mykiss with 23 samples.

Results

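The ubiquitin and proteasome probes of a trout array were followed in fast muscle through a fast and the refeeding after it. A probe was included when its name in the heat map file of the study or in the scanner files contained proteasome, ubiquitin, PSMA1 or MSS1, and the probes of FBXO32, TRIM63 and SQSTM1 were left out. This gave 26 of the 60195 probes on the array, which carried 19 gene names: 5 proteasome probes, 7 of ubiquitin-conjugating enzymes, 9 of ubiquitin ligases, 1 of a deubiquitinase and 4 others, of which 3 were named ubiquitin. Only the PSMA1 probe named in the scanner files and the MSS1 probe, 2 in all, took their names from the array itself.

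Ubiquitin is a small protein that is attached to other proteins in a relay of enzymes: an activating enzyme loads it, a conjugating enzyme carries it, and a ligase picks the target and passes it on. A protein with a chain of ubiquitin is unfolded by the ATPases of the regulatory particle of the proteasome and cut up in its core, while deubiquitinases take the ubiquitin off again. In skeletal muscle this system breaks down much of the contractile protein when an animal loses muscle, and fasting is a classic setting in which its genes are studied.

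Each of the 23 arrays held the Cy3-labelled RNA of the muscle of a single rainbow trout (Oncorhynchus mykiss), from a slice of fast muscle below the dorsal fin. The groups were trout fasted for 30 days (F0, 5 fish), trout fasted in the same way and then refed above the normal ration for 4 days (RF4, 5 fish), 11 days (RF11, 5 fish) or 36 days (RF36, 4 fish), and control trout fed to satiation throughout and sampled at the end of the fast (C0, 4 fish). All fish were yearlings of a spring strain, and no genetic change was named. The labels and the methods give the same fast for all refed trout, while the results text of the study gives a longer one. Control trout lived in a tank of their own and were sampled on a single day, so tank (and, for refed trout, sampling day) cannot be told apart from feeding wherever C0 is used. Fasted and refed trout shared the other tank, and each of these groups was sampled on a day of its own. Sampling day, and age with it, therefore cannot be told apart from refeeding in comparisons between them.

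Levels are log2 signals minus the 75th percentile of the same array, so 0 is the level of a fairly bright probe, 1 unit is a 2-fold difference in signal, and levels can be set side by side between fish but not between probes. The share of spots well above background ran from 45.2% to 67.2% over the arrays, and the number of fish limits the precision of every value. The highest share was that of C0-1, which matched no column of the heat map file (best r = 0.596 across its probes, against at least 0.982 for the other 22 arrays). The counts over all members against C0 and some results of single members are therefore also given without it. Other results against C0 are given only with C0-1 among the controls. Of 19 probes of fast fibre proteins, 19 were well above background on every array, and their summed signal, in multiples of the 75th percentile of the array, was 3310 to 4399 in F0, 4296 to 5564 in RF4, 6545 to 10279.6 in RF11, 8903 to 13055 in RF36 and 5738 to 12617 in C0. The brightest probes set this sum, and not all of the 19 followed it. Probes with mean levels of 7.60, 1.31 and 0.79 in F0 averaged 6.06, 0.22 and 0.58 in C0. All others of the 19 had a lower mean in F0 than in C0. The sum of 21 collagen probes was 188 to 526 in F0, 500.4 to 1094 in RF4, 689 to 1428 in RF11, 1502 to 2162 in RF36 and 1039 to 2007 in C0. The 2 slow fibre probes summed to at most 39.8 except on C0-3, with 628, and RF4-3, with 172. No probe here was named for red blood cells, leukocytes or fat. The collagen probes and most of the fast fibre probes were named only in the heat map file. It holds probes that had passed an analysis of variance on these same fish. That such probes differ somewhere between the groups was therefore fixed by the choice. Fibre and collagen probes differed between the same groups as the results below, and their part in those results was not tested. In a slice of muscle, fewer cells of a type and less RNA per cell cannot be told apart.

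The choice of probes limits what their number can show. Of the 26 members, 24 were named only in the heat map file, which holds probes that had passed an analysis of variance on these same fish, and the copy read here held 1252 of its rows. That such members differ somewhere between the groups was fixed by the choice, so counts over the members are a description. Over the 5 groups, 25 of the 26 passed the moderated F test of limma. Of the 34200 probes tested 45.8% did, and of the 1211 heat map probes tested 99.9% did. The exception was MSS1 (limma adjusted p = 0.0573), which had no name in the heat map file. The mean level was highest in F0 for 24 of the 26 members, in RF11 for 1 and in RF36 for 1. It was lowest in C0 for 11 members, in RF11 for 5, in RF36 for 5, in RF4 for 4 and in F0 for 1. The 24 highest in F0 include MKRN2 and UBR7, which were bright enough to be tested only through the fasted fish. The group of the highest mean was not counted for other probes, so the 24 have no share beside them. Of the heat map probes tested, 52.4% were higher in F0 than in C0 and 56.9% were lower at RF4 than in F0.

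In fasted trout most members stood higher than in control trout. At an adjusted p under 0.05 (limma, Benjamini-Hochberg over all probes tested) 21 members were higher in F0 than in C0, 2 were lower and 3 did not pass, where 20.3% of all probes passed, 11.4% higher and 8.92% lower. All probes had a median difference of 0.00 and the members one of 1.73. The 21 include UBR7, which was bright enough to be tested only through the fasted fish. Its higher level in F0 was thus part of its choice. Among the 1211 heat map probes tested, 52.4% were higher and 30.2% lower. Within each of the 3 slides, all 23 called members kept the sign of their difference. The slides held 1 F0 and 1 C0 fish, 2 and 1, and 2 and 2. The members had been called on these same fish, so this is a description and not a replication. Without C0-1 the counts were 22 higher and 2 lower. The member gained was MKRN2, which like UBR7 was bright enough to be tested only through the fasted fish.

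The 5 proteasome probes were all higher in fasted than in control muscle, where 11.4% of all probes and 52.4% of the heat map probes were higher. As 3 of the 5 were named for 1 gene, PSMA1, this is not a count of 5 genes. PSMA1, the alpha type-1 subunit in the outer rings of the proteasome core, had 3 probes. The probe named in the scanner files had levels of 5.56, 5.96, 5.83, 5.45 and 6.53 in F0, 4.88, 5.11, 4.92, 5.37 and 5.16 in RF4, 4.51, 5.01, 4.81, 5.01 and 4.79 in RF11, 4.55, 4.60, 4.59 and 4.54 in RF36 and 3.36, 3.74, 4.41 and 4.18 in C0. Every fasted fish was above every other fish, every control fish was below every other fish, and the 3 refed groups lay between them. The level averaged 5.87 ± 0.42 in F0 (SD, n = 5) and 3.92 ± 0.47 in C0 (SD, n = 4), a 3.84-fold higher signal in fasted trout (difference 1.94 ± 0.21 log2 units with its standard error, limma adjusted p = 1.23e-06). Without C0-1 the difference was 1.76, adjusted p = 6.43e-06, and within the slides it was 1.82, 2.88 and 1.34. The value of 1.82 rests on 1 F0 and 1 C0 fish, and that of 2.88 has C0-1 as its only control. The other 2 probes, named after human and chicken PSMA1, had differences of 1.79 ± 0.19 (limma adjusted p = 1.02e-06) and 1.92 ± 0.21 (limma adjusted p = 1.48e-06). The chicken-named and the scanner-named probe had nearly equal levels in every fish, such as 6.49 and 6.53 in F0-7, so they may read the same transcript and are not independent evidence.

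PSMA1 was lower than in F0 at each refeeding time. After 4 days the scanner-named probe averaged 5.09 ± 0.20 in RF4 (SD, n = 5), -0.78 ± 0.20 against F0 (limma adjusted p = 0.00602), which was still 1.16 above C0 (limma adjusted p = 0.000334). After 11 days the difference from F0 was -1.04 ± 0.20 (limma adjusted p = 0.000396) and that from C0 was 0.90 (limma adjusted p = 0.00406). After 36 days the difference from F0 was -1.30 ± 0.21 (limma adjusted p = 7.36e-05), while that from C0, 0.65, did not pass (limma adjusted p = 0.0618). It did pass without C0-3 (adjusted p = 0.0204), C0-4 (0.0469) or F0-7 (0.0357), and without C0-1 it was 0.46, adjusted p = 0.220. Between RF36 and RF4 the differences of the scanner-, chicken- and human-named probes, -0.52, -0.49 and -0.42, did not pass (limma adjusted p = 0.0994, 0.122 and 0.149). The fall at RF4 depended on the scaling: with each array scaled to its median, the difference from F0 was -0.68, adjusted p = 0.0851 for the scanner-named probe, -0.57, adjusted p = 0.126 for the human-named and -0.70, adjusted p = 0.0790 for the chicken-named probe. With that scaling the human-named probe did not pass against F0 at RF11 either (-0.64, adjusted p = 0.072).

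MSS1 is the name, in mammals, of an ATPase of the regulatory particle, and the files give the probe no further annotation. It read 6.07, 6.79, 6.37, 5.42 and 7.12 in F0, 5.97, 6.19, 6.01, 6.30 and 5.50 in RF4, 5.99, 5.60, 5.98, 6.12 and 5.72 in RF11, 6.09, 6.25, 5.74 and 5.88 in RF36 and 5.22, 5.53, 5.40 and 5.63 in C0. Fasted fish were the most variable, and F0-5 alone fell within the range of the controls. F0 was 1.88-fold above C0 (0.91 ± 0.25, limma adjusted p = 0.0122), a call that was lost when only these 2 groups were fitted (adjusted p = 0.0994) and kept without C0-1 (0.83, adjusted p = 0.0375). No refed group passed against F0: the difference at RF4 was -0.36 with a 95% confidence interval of -0.85 to 0.13 (limma adjusted p = 0.297), so a fall as large as that of PSMA1 cannot be told from none here. Without F0-5 the differences from F0 passed at RF4, RF11 and RF36, with adjusted p = 0.0429, 0.0144 and 0.0429.

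ECM29 is an adaptor that binds the assembled proteasome, as known from yeast. Its levels were 0.81, 1.69, 0.15, 1.02 and 2.04 in F0, -1.0, -0.99, -1.34, -1.31 and -1.05 in RF4, -0.86, -1.73, -1.09, -0.68 and -1.27 in RF11, -1.10, -1.45, -1.50 and -1.20 in RF36 and 1.08, -0.41, -1.56 and -1.16 in C0. Every refed fish was below every fasted fish, and a single control, C0-1, read as high as the fasted fish. F0 was 3.15-fold above C0 (1.65 ± 0.40, limma adjusted p = 0.00466), which became 2.19, adjusted p = 8.27e-05, without C0-1 and did not pass when F0 and C0 were fitted alone (adjusted p = 0.0718). At RF4 it was 4.86-fold lower than in F0 (-2.28 ± 0.37, limma adjusted p = 7.84e-05), and no refed group differed from C0 past the threshold.

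The conjugating enzymes split into 6 probes that were higher in F0 than in C0 and 1, UBE2D4, that was lower, where 11.4% of all probes and 52.4% of the heat map probes were higher. The median difference of the 7 probes was 1.84. After 4 days of refeeding 5 were lower than in F0, 1 was higher and 1 did not pass, where 9.68% of all probes and 56.9% of the heat map probes were lower. That count of the 7 probes was again 5, 1 and 1 at RF11, where 27.0% of all probes and 93.3% of the heat map probes passed in either direction, and at RF36 it was 6 lower and 1 higher, where 32.7% and 95.9% passed.

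UBE2J1 sits in the membrane of the endoplasmic reticulum and serves the disposal of misfolded proteins there. It read 0.01, 0.72, 1.03, 1.08 and 2.32 in F0, -1.36, -2.05, -1.98, -0.52 and -1.73 in RF4, -2.63, -2.17, -2.81, -2.66 and -2.51 in RF11, -1.68, -1.95, -1.52 and -2.81 in RF36 and -1.28, -1.07, -1.36 and -1.27 in C0. Fasted fish lay above all others without overlap, and every RF11 fish lay below every control. F0 was 4.85-fold above C0 (2.28 ± 0.35, limma adjusted p = 7.87e-05). RF4 was 5.90-fold below F0 (-2.56 ± 0.33, limma adjusted p = 4.66e-06) and RF11 was 12.0-fold below it (-3.59 ± 0.33, limma adjusted p = 4.00e-08). RF11 was also 2.48-fold below C0 (-1.31 ± 0.35, limma adjusted p = 0.0110). This did not pass under median scaling (-0.98, adjusted p = 0.0594) or quantile normalization (-0.98, adjusted p = 0.066). The probe was well above background in 3 of 5 RF11 fish and 3 of 4 RF36 fish, so its low values there are the least certain.

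UBE2D4 belongs to a family of conjugating enzymes that work with many ligases, and it ran the other way. Its levels were 0.20, -0.31, 0.75, 0.78 and 1.31 in F0, 1.90, 2.19, 1.41, 2.89 and 2.21 in RF4, 2.90, 3.60, 2.67, 3.39 and 3.37 in RF11, 2.98, 3.29, 2.38 and 2.66 in RF36 and 1.89, 1.82, 2.35 and 2.18 in C0. Every fasted fish was below every control, and every RF11 and RF36 fish was above every control. F0 was 2.86-fold below C0 (-1.52 ± 0.30, limma adjusted p = 0.000968). RF4, RF11 and RF36 were 2.97-fold, 6.24-fold and 4.87-fold above F0 (limma adjusted p = 0.000231, 3.15e-07 and 5.39e-06). Against C0 the difference was 0.06 ± 0.30 at RF4 (limma adjusted p = 0.907), 1.13 ± 0.30 at RF11 (limma adjusted p = 0.0105) and 0.77 ± 0.32 at RF36 (limma adjusted p = 0.117), so that it passed at RF11 alone. RF36 and RF4 did not differ past the threshold (0.71 ± 0.30, limma adjusted p = 0.112) except without RF4-5 (0.90, adjusted p = 0.047), and RF11 was not compared with the other refeeding times. Against C0, the RF36 difference passed under median scaling (1.01, adjusted p = 0.0478).

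UBE2E1, a conjugating enzyme of a related family, had the smallest standard errors of the 7 probes. It read 2.32, 2.43, 2.39, 2.41 and 2.69 in F0, 0.99, 0.96, 1.11, 1.26 and 1.15 in RF4, 1.18, 1.48, 1.30, 1.24 and 1.16 in RF11, 1.47, 1.62, 1.56 and 1.45 in RF36 and 0.29, 0.28, 0.74 and 1.10 in C0. Fasted fish were again above all others, and every RF11 and RF36 fish was above every control. F0 was 3.59-fold above C0 (1.84 ± 0.16, limma adjusted p = 5.58e-08) and RF4 2.55-fold below F0 (-1.35 ± 0.15, limma adjusted p = 5.72e-07). After 36 days UBE2E1 was still 1.89-fold above C0 (0.92 ± 0.17, limma adjusted p = 0.00116), also without C0-1 (0.82, adjusted p = 0.00468), but not when RF36 and C0 were fitted alone (adjusted p = 0.075).

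UBE2A, the counterpart of the yeast repair enzyme Rad6, had levels of 1.63, 2.58, 2.81, 2.71 and 2.28 in F0, 1.35, 0.40, 0.93, 1.07 and 0.46 in RF4, 0.81, 0.69, 0.26, 0.78 and 0.93 in RF11, 0.38, 1.28, 0.13 and 0.19 in RF36 and -0.82, 0.78, 0.62 and 0.56 in C0. Every fasted fish was above every other fish, and the refed groups overlapped the controls. F0 was 4.34-fold above C0 (2.12 ± 0.31, limma adjusted p = 4.79e-05; 1.75, adjusted p = 0.000183, without C0-1, its lowest control) and RF4 2.95-fold below F0 (limma adjusted p = 0.000385). No refed group differed from C0 past the threshold. UBE2K, which builds ubiquitin chains of the kind that marks proteins for the proteasome, moved least of the 7 conjugating enzyme probes. It read 0.20, 0.32, 0.38, 0.57 and 0.60 in F0, -0.28, -0.17, 0.04, 0.09 and 0.23 in RF4, 0.11, 0.12, -0.17, -0.14 and -0.09 in RF11, -0.18, -0.51, -0.63 and -0.84 in RF36 and 0.17, -0.60, -0.71 and -0.26 in C0. Fasted fish overlapped RF4 fish, RF4 fish overlapped RF11 fish, and every RF36 fish was below every RF11 fish. Its F0 signal was 1.70-fold that of C0 (limma adjusted p = 0.00414; 0.063 when these groups were fitted alone). Against F0 it passed at RF36 (-0.95 ± 0.18, limma adjusted p = 0.000324) but not at RF4 (-0.43 ± 0.17, limma adjusted p = 0.0713) or RF11 (-0.45 ± 0.17, limma adjusted p = 0.0541). Without C0-1 it passed at RF4 and RF11 as well (adjusted p = 0.0345 and 0.0251), and at RF11 also without C0-3, F0-2 or RF36-1 (adjusted p = 0.0433, 0.0464 and 0.0491).

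UBE2G1, a conjugating enzyme that extends ubiquitin chains, had 2 probes that parted after refeeding. The rat-named probe read 1.07, 1.27, 2.11, 1.29 and 2.54 in F0, 0.05, 0.36, 1.01, 0.81 and 0.63 in RF4, 0.50, 0.58, -0.16, 0.91 and 0.31 in RF11, -0.13, -0.11, 0.12 and -0.44 in RF36 and -0.33, -0.64, -0.49 and -0.16 in C0. The salmon-named probe read 0.47, 1.03, 0.87, 0.23 and 1.41 in F0, -0.92, -1.32, -0.85, -0.54 and -0.94 in RF4, -2.26, -1.15, -1.40, -0.87 and -1.61 in RF11, -0.13, -0.56, -0.39 and -0.50 in RF36 and -0.68, 0.12, -0.52 and -0.20 in C0. At both probes every fasted fish was above every other fish, and at the salmon-named probe every RF11 fish was also below every control. Both were higher in F0 than in C0 (differences 2.06 ± 0.27 and 1.12 ± 0.26, limma adjusted p = 1.11e-05 and 0.00350) and both were lower at RF4 than in F0 (-1.08 ± 0.26 and -1.71 ± 0.24, limma adjusted p = 0.00300 and 1.50e-05). At RF11 the rat-named probe was 0.83 above C0 (limma adjusted p = 0.0324) and the salmon-named probe -1.14 from it (limma adjusted p = 0.00298). The call of the rat-named probe was lost without any of C0-1, C0-2, C0-3, RF11-2 or RF11-5 (adjusted p from 0.0527 without C0-3 to 0.0917 without C0-2). It was also lost under normexp background correction (0.53, adjusted p = 0.0733) and with no filter on dim probes (adjusted p = 0.0591). That of the salmon-named probe was lost under median scaling (-0.81, adjusted p = 0.0772). The files do not say whether the probes read the same transcript or those of different gene copies.

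All 9 ligase probes were lower at RF4, at RF11 and at RF36 than in F0, where 9.68%, 12.0% and 14.5% of all probes and 56.9%, 63.7% and 65.4% of the heat map probes were lower. Of the 9, MKRN2 and UBR7 were bright enough to be tested only through the fasted fish, so that a lower level after refeeding was part of their choice, which leaves 7 probes. As RNF25 and KCMF1 had 2 probes each, this is not a count of 7 genes. The median differences of the 9 from F0 were -1.34 (RF4), -1.89 (RF11) and -1.77 (RF36). Against C0, 7 of the 9, UBR7 among them, were higher in F0, where 11.4% of all probes and 52.4% of the heat map probes were, and 2, MKRN2 and ZNRF2, did not pass.

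RNF25, a RING ligase, had 2 probes that kept together. The mouse-named probe read 3.89, 4.24, 4.12, 3.90 and 4.36 in F0, 2.88, 2.96, 2.82, 2.68 and 2.70 in RF4, 1.77, 2.18, 2.11, 2.28 and 1.90 in RF11, 2.12, 2.31, 2.37 and 2.14 in RF36 and 1.45, 2.32, 2.11 and 2.34 in C0. The salmon-named probe read 2.03, 2.47, 2.08, 1.93 and 2.25 in F0, 0.77, 1.03, 0.69, 0.77 and 0.84 in RF4, 0.25, 0.34, 0.17, 0.35 and 0.20 in RF11, 0.53, 0.28, 0.52 and 0.20 in RF36 and 0.29, 0.47, 0.29 and 0.53 in C0. At both probes the fasted fish stood clear of all others, the RF4 fish came next, and the RF11, RF36 and control fish overlapped. F0 was 4.13-fold and 3.39-fold above C0 (differences 2.05 ± 0.17 and 1.76 ± 0.14, limma adjusted p = 5.34e-08 and 1.88e-08). RF4 was 2.46-fold and 2.52-fold below F0 (limma adjusted p = 3.50e-06 and 1.23e-07), and above C0 by 0.75 and 0.43 (limma adjusted p = 0.00308 and 0.0278). The second of these calls was lost without C0-1, C0-3, RF4-3 or RF4-7 (adjusted p from 0.0502 without RF4-7 to 0.0736 without RF4-3). At RF11 the differences from C0 were -0.01 (95% confidence interval -0.37 to 0.35) and -0.13 (-0.42 to 0.16), and neither passed.

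MKRN1, a zinc finger ligase that also binds RNA, fell in steps. It read 2.30, 3.24, 2.01, 1.50 and 2.43 in F0, 0.74, 0.92, 1.83, 0.70 and 0.93 in RF4, -0.67, -0.86, -0.87, -1.32 and -1.37 in RF11, -0.33, -0.38, -1.19 and -0.81 in RF36 and 0.03, 0.96, 0.16 and 1.25 in C0. All RF11 and RF36 fish were below all controls, while RF4 fish lay among or above them. The difference from F0 was -1.28 ± 0.30 at RF4 (limma adjusted p = 0.00286) and -3.32 ± 0.30 at RF11 (limma adjusted p = 2.76e-08), a 9.98-fold lower signal. RF11 was 3.08-fold below C0 (-1.62 ± 0.32, limma adjusted p = 0.000832; -1.81, adjusted p = 0.000683, without C0-1). RF36 was 2.42-fold below C0 (-1.28 ± 0.34, limma adjusted p = 0.0152), which was lost without C0-2 or RF36-3 (adjusted p = 0.0514 and 0.0592) and under median scaling (-1.03, adjusted p = 0.0971). RF36 was also below RF4 (-1.70 ± 0.32, limma adjusted p = 0.000835).

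ZNRF2, a membrane-bound RING ligase, had its low point at RF4. It read -0.27, 0.43, 0.23, -0.40 and 1.31 in F0, -2.25, -3.41, -2.63, -2.65 and -2.20 in RF4, -2.02, -1.30, -1.93, -2.05 and -1.34 in RF11, -0.92, -1.23, -1.15 and -0.71 in RF36 and -1.02, -0.03, -0.04 and -0.37 in C0. Fasted and control fish overlapped (0.63 ± 0.31, limma adjusted p = 0.170), and every RF4 fish was below every fish of the other groups. RF4 was 7.41-fold below F0 (-2.89 ± 0.29, limma adjusted p = 1.85e-07) and 4.80-fold below C0 (-2.26 ± 0.31, limma adjusted p = 1.14e-05; -2.48, adjusted p = 1.08e-05, without C0-1). The probe was well above background in 2 of 5 RF4 fish, so these folds rest partly on dim spots. By RF36 it was 3.08-fold above RF4 (1.62 ± 0.31, limma adjusted p = 0.000974), and its difference from C0, -0.64 ± 0.33, did not pass (limma adjusted p = 0.206).

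The other ligases had the common course of high levels in F0 and lower levels from RF4 on. CBLL1, also called Hakai and known in mammals as a ligase of E-cadherin, read 0.79, 0.99, 1.32, 1.52 and 1.66 in F0, -0.40, -0.55, -0.62, -0.06 and -0.26 in RF4, -0.61, -0.10, -0.42, -0.21 and -0.19 in RF11, -1.14, -1.28, -1.16 and -1.09 in RF36 and -0.46, -0.51, -0.57 and -1.44 in C0. Fasted fish stood clear of all others, RF36 fish were below all RF4 and RF11 fish, and C0-4 was the lowest fish of all. F0 was 4.01-fold above C0 (2.00 ± 0.21, limma adjusted p = 6.46e-07), RF4 was 3.10-fold below F0 (limma adjusted p = 1.59e-06), and RF36 was lower than RF4 (-0.79 ± 0.21, limma adjusted p = 0.0105). Against C0 its RF36 difference of -0.42 did not pass (limma adjusted p = 0.213) except without C0-4 (-0.66, adjusted p = 0.0323). KCMF1, a zinc finger ligase, had 2 probes. The mouse-named probe read 0.13, 0.60, 0.60, 0.26 and 0.47 in F0, -1.39, -0.65, -0.85, -0.64 and -0.46 in RF4, -0.77, -1.08, -1.13, -0.66 and -1.06 in RF11, -1.76, -1.76, -0.96 and -0.97 in RF36 and -1.24, -2.01, -2.45 and -1.26 in C0. The zebrafish-named probe read 1.11, 1.21, 1.31, 1.33 and 0.94 in F0, 0.46, 0.16, 0.24, 0.29 and 0.43 in RF4, 0.80, 0.47, -0.05, 0.24 and 0.39 in RF11, 0.24, -0.52, 0.17 and -0.04 in RF36 and 0.26, 0.32, 0.06 and 0.26 in C0. At both probes every fasted fish was above every other fish. Both were above their C0 level in F0 (2.15 ± 0.25 and 0.96 ± 0.17, limma adjusted p = 2.83e-06 and 0.000414) and below their F0 level at RF4 (-1.21 ± 0.24 and -0.86 ± 0.16, limma adjusted p = 0.000520 and 0.000381). The mouse-named probe was well above background in only 2 of 4 controls and stayed above C0 at RF4 (0.94, limma adjusted p = 0.00862), which was lost under normexp background correction (adjusted p = 0.203). The zebrafish-named probe was 0.09 from C0 at RF4 (limma adjusted p = 0.730).

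MKRN2 and UBR7 were the dimmest members and entered the test only through the fasted fish, so a higher level there was part of their choice, and their differences from F0 are given as a description with no test. MKRN2, a relative of MKRN1, read -1.33, -1.09, -1.20, -1.82 and -1.0 in F0, -3.06, -3.0, -3.24, -2.57 and -2.59 in RF4, -2.79, -2.86, -2.38, -2.51 and -2.79 in RF11, -2.51, -3.18, -3.35 and -2.59 in RF36 and -1.19, -1.84, -2.34 and -2.0 in C0. Every refed fish was below every fasted and every control fish, and the fasted and control fish overlapped. MKRN2 was well above background in 5 F0, 1 RF4, 3 RF11, 0 RF36 and 3 C0 fish. RF36 was at least 1.95-fold lower than F0 and at least 1.33-fold lower than C0 (limma adjusted p = 0.00717; 0.067 with normexp and 0.0954 with these groups alone), as bounds set by the dimmest probes well above background on those arrays. The difference between F0 and C0 was 0.55. UBR7, named as a putative ligase, read -1.27, -1.94, -0.84, -1.49 and -1.96 in F0, -2.61, -3.13, -3.05, -2.85 and -2.59 in RF4, -3.49, -2.50, -4.02, -3.56 and -3.53 in RF11, -2.67, -3.16, -3.88 and -3.12 in RF36 and -3.46, -3.95, -3.14 and -3.23 in C0. Every fasted fish was above every other fish. UBR7 was well above background in 5 fasted fish and 1 RF4 fish and in no other fish. In the main processing F0 was thus at least 1.74-fold above C0, RF11 at least 2.5-fold below F0 and RF36 at least 1.68-fold below F0. With normexp background correction, F0 minus C0 was 0.22 log2 units and RF36 minus F0 was -0.38. Both were smaller than these bounds, so the bounds depend on the background correction.

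The 3 probes named ubiquitin did not share one course. Their names give the organism of the best protein match, and since ubiquitin is nearly identical in all eukaryotes and is encoded by several genes, the names do not tell which trout gene each probe reads, and probes of near-identical copies may share signal. The Xenopus-named probe read 0.04, 1.23, 1.07, 0.72 and 1.59 in F0, -2.37, -2.94, -2.64, -2.12 and -1.89 in RF4, -2.22, -1.75, -1.60, -0.94 and -1.72 in RF11, -0.99, -1.21, -2.49 and -1.88 in RF36 and 0.89, 0.32, 0.60 and -0.30 in C0. Fasted and control fish overlapped, and every refed fish was below every fasted and every control fish. RF4 was 10.0-fold below F0 (-3.32 ± 0.32, limma adjusted p = 9.05e-08), the largest difference of any member in that comparison, and 6.82-fold below C0 (-2.77 ± 0.34, limma adjusted p = 2.80e-06). After 36 days it was still 4.06-fold below C0 (-2.02 ± 0.36, limma adjusted p = 0.000972; -1.85, adjusted p = 0.00494, without C0-1). It was well above background in 2 of 5 RF4 and 3 of 4 RF36 fish.

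The Leishmania-named probe, whose name is that of ubiquitin fused to a ribosomal protein, also had its lowest mean at RF4. It read 4.65, 5.43, 4.58, 3.95 and 4.94 in F0, 2.11, 1.91, 1.45, 1.47 and 1.68 in RF4, 2.17, 1.75, 2.41, 2.47 and 2.10 in RF11, 3.12, 2.80, 1.92 and 2.01 in RF36 and 2.91, 4.21, 3.32 and 3.55 in C0. Every RF4 and RF11 fish was below every control, and F0 overlapped C0 through F0-5 and C0-2. F0 was 2.31-fold above C0 (1.21 ± 0.30, limma adjusted p = 0.00526; 1.01, adjusted p = 0.0256, without C0-1). RF4 was 7.92-fold below F0 (-2.99 ± 0.28, limma adjusted p = 6.17e-08) and 3.42-fold below C0 (-1.77 ± 0.30, limma adjusted p = 0.000121). The RF36 difference from C0 was -1.03 ± 0.31 (limma adjusted p = 0.0323), a call lost without C0-2, C0-4, RF36-3 or RF36-4 (adjusted p from 0.0512 without C0-4 to 0.119 without C0-2) and under median scaling (-0.79, adjusted p = 0.199).

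The sponge-named probe went its own way. It read 4.83, 5.42, 4.81, 4.85 and 4.33 in F0, 4.89, 4.57, 4.26, 3.60 and 4.31 in RF4, 5.28, 5.13, 5.25, 5.39 and 5.88 in RF11, 6.07, 6.05, 6.34 and 5.75 in RF36 and 5.24, 5.84, 5.69 and 5.87 in C0. The mean was lowest in RF4 and highest in RF36, fasted fish overlapped both RF4 and control fish, and RF36 fish overlapped RF11 and control fish. RF36 was 2.30-fold above F0 (1.20 ± 0.24, limma adjusted p = 0.000529) and 3.31-fold above RF4 (1.73 ± 0.24, limma adjusted p = 4.41e-05), while RF4 was 2.52-fold below C0 (-1.33 ± 0.24, limma adjusted p = 0.000264). F0 was 1.76-fold below C0 (-0.81 ± 0.24, limma adjusted p = 0.0184), but this call was lost without F0-7, C0-2 or C0-4 (adjusted p = 0.0578, 0.0538 and 0.0541), with normexp (0.0867), with these groups alone (0.0681) and under median scaling (-0.63, adjusted p = 0.187). RF4 against F0, -0.52, did not pass (limma adjusted p = 0.101) except without F0-7 or RF4-2 (adjusted p = 0.0429 and 0.0376). RF11 against F0, 0.54, did not pass either (limma adjusted p = 0.0811) except without F0-3 (adjusted p = 0.0327).

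USP2, the only deubiquitinase, and UBAP2, a protein with a ubiquitin-associated domain, were higher in fasted than in control trout and lower at each refeeding time than in fasted trout. USP2 read 2.37, 3.72, 3.20, 2.30 and 3.13 in F0, 1.91, 2.11, 2.23, 2.59 and 1.84 in RF4, 2.07, 1.69, 1.42, 1.86 and 1.44 in RF11, 1.62, 1.19, 1.47 and 1.17 in RF36 and 1.11, 0.94, 0.68 and 1.42 in C0. F0 was 3.75-fold above C0 (1.91 ± 0.25, limma adjusted p = 1.06e-05), with no overlap, and RF4 was 1.75-fold below F0 (-0.81 ± 0.24, limma adjusted p = 0.0146). The RF4 call was lost without F0-3 (adjusted p = 0.0571), with RF4 and F0 fitted alone (0.0507) and under median scaling (-0.71, adjusted p = 0.0702), while RF11 against F0 was -1.25 ± 0.24 (limma adjusted p = 0.000317) and RF36 against F0 was -1.58 ± 0.25 (limma adjusted p = 4.94e-05). USP2 was above C0 at RF4 (1.10 ± 0.25, limma adjusted p = 0.00261) but not past the threshold at RF11 (0.66 ± 0.25, limma adjusted p = 0.0644), where it passed without C0-4, F0-3 or F0-5 (adjusted p = 0.0425, 0.0409 and 0.0498). UBAP2 read 3.59, 4.02, 3.76, 3.05 and 3.84 in F0, 2.67, 3.05, 3.13, 3.10 and 2.84 in RF4, 2.70, 2.46, 2.72, 2.72 and 2.38 in RF11, 2.51, 2.29, 2.37 and 2.43 in RF36 and 1.99, 2.16, 1.57 and 2.41 in C0. Every control was below every fasted and every RF4 fish. The F0 signal was 3.08-fold that of C0 (1.62 ± 0.19, limma adjusted p = 2.68e-06), and the RF4 level was below that of F0 (-0.69 ± 0.18, limma adjusted p = 0.00570), which was lost under median scaling (-0.60, adjusted p = 0.0935).

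Refeeding was accompanied by lower levels of most members within 4 days. Against F0, 22 members were lower at RF4, 1 was higher and 3 did not pass, where 23.3% of all probes passed, 9.68% lower and 13.6% higher. The median difference was -1.29 for the members and -0.07 for all probes. Of the heat map probes tested, 56.9% were lower and 20.1% higher. At RF11 the members' counts were 22 lower, 1 higher and 3 not passing (27.0% of all probes passed, 12.0% lower and 15.0% higher, and 93.3% of the heat map probes), and at RF36 23 lower, 2 higher and 1 not passing (32.7% of all probes passed, 14.5% lower and 18.2% higher, and 95.9% of the heat map probes). The members counted as lower include MKRN2 and UBR7 at each refeeding time. These were bright enough to be tested only through the fasted fish, so a lower level after refeeding was part of their choice. Under median scaling, which moved the median difference of all probes at RF4 to 0.02, 17 members were lower and 1 higher.

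Set against control trout, some members of refed trout were above the control level, some were below it, and many did not pass. At RF4, 10 members were higher than in C0, 5 were lower and 11 did not pass, where 25.4% of all probes passed, 15.5% higher and 9.92% lower, and 58.5% of the heat map probes. The 10 were the 3 PSMA1 probes, UBE2E1, the rat-named UBE2G1, the mouse-named KCMF1, both RNF25 probes, UBAP2 (0.93 ± 0.19, limma adjusted p = 0.000954) and USP2. The UBE2E1 call (0.49 ± 0.16, limma adjusted p = 0.0252) was lost without C0-1, C0-2 or RF4-5 (adjusted p = 0.0904, 0.104 and 0.0615) and with these groups fitted alone (0.143). The 5 were ZNRF2, MKRN2 (-1.05 ± 0.23, limma adjusted p = 0.00220) and the 3 ubiquitin probes. Without C0-1 the counts were 9 and 5. At RF11 the counts were 8 higher, 7 lower and 11 not passing (20.7% of all probes passed, 14.0% higher and 6.71% lower, and 38.5% of the heat map probes), and without C0-1 they were 6 higher and 6 lower. The 8 were the 3 PSMA1 probes, UBE2D4, UBE2E1, the rat-named UBE2G1, the mouse-named KCMF1 and UBAP2, with differences between 0.56 and 1.13. The 7 were UBE2J1, the salmon-named UBE2G1, MKRN1, MKRN2, ZNRF2 and the Leishmania- and Xenopus-named ubiquitin probes, with differences between -2.02 and -0.83. The UBAP2 call was lost without C0-1, C0-2, C0-3, RF11-1, RF11-4 or RF11-5 (adjusted p from 0.0529 without C0-2 to 0.12 without C0-3) and under quantile normalization (0.31, adjusted p = 0.199). That of the mouse-named KCMF1 was lost without C0-2, C0-3 or RF11-5 (adjusted p = 0.085, 0.097 and 0.0667) and under normexp (0.15, adjusted p = 0.474). That of MKRN2 was lost without C0-1 (adjusted p = 0.0755) and under median scaling (-0.50, adjusted p = 0.171). That of the Leishmania-named ubiquitin probe was lost under median scaling as well (-0.99, adjusted p = 0.0658). At RF36 2 members were higher, the human-named PSMA1 (0.71 ± 0.20, limma adjusted p = 0.0261; 0.57, adjusted p = 0.0937, without C0-1) and UBE2E1, and 4 were lower, MKRN1, MKRN2 and the Leishmania- and Xenopus-named ubiquitin probes, while 20 did not pass (12.5% of all probes passed, 9.24% higher and 3.22% lower, and 22.0% of the heat map probes). The call of the human-named PSMA1 was also lost without C0-2, RF36-1, RF36-2 or RF36-4 (adjusted p from 0.0522 without RF36-1 to 0.0766 without C0-2). Without C0-1, 1 member was higher at RF36 and 4 were lower. A difference that did not pass is not evidence of an equal level, and each of these comparisons uses the same 4 controls.

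These splits shift with the scaling. Scaling to the median moved the median difference of all probes against C0 to 0.19 (0.00 with the 75th percentile) for F0, 0.19 (-0.09) for RF4, 0.24 (-0.08) for RF11 and 0.27 (0.03) for RF36. The median signal and the 75th percentile lay closest together, relative to each other, on C0-1 among the controls. They were 51.4 and 130 on C0-1, 30.9 and 123 on C0-2, 120 and 426 on C0-3, and 49.1 and 201 on C0-4. The part of C0-1 in these shifts was not tested. The members' counts against C0 then were 13 higher and 5 lower at RF4, 11 higher and 3 lower at RF11, and 3 higher and 2 lower at RF36. For F0 they were 22 higher and 1 lower. The member gained there was MKRN2, which was bright enough to be tested only through the fasted fish. Of all probes called, the share that was higher was 76.9% under median scaling and 56.2% with the 75th percentile for F0 against C0, 70.0% and 58.4% for RF4 against F0, 70.6% and 55.6% for RF11 against F0, 88.9% and 61.0% for RF4 against C0, 93.2% and 67.5% for RF11 against C0, and 91.3% and 74.2% for RF36 against C0.

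Between RF36 and RF4, 7 members were lower at RF36, 2 were higher and 17 did not pass, where 17.1% of all probes passed, 9.40% higher and 7.70% lower, and 55.9% of the heat map probes did. The 2 were ZNRF2 and the sponge-named ubiquitin probe. The largest fall was that of MKRN1 (-1.70 ± 0.32, limma adjusted p = 0.000835), and the other 6 were CBLL1, both RNF25 probes, USP2, UBAP2 and UBE2K, with differences between -0.79 and -0.44. Of these, the UBE2K call (limma adjusted p = 0.0485) was lost in 25 alternatives, 18 of them with a single array left out. The calls of UBAP2, USP2 and the mouse- and salmon-named RNF25 probes (limma adjusted p = 0.0436, 0.0369, 0.0266 and 0.0330) were lost without 11, 6, 3 and 5 single arrays, and that of CBLL1 under normexp (adjusted p = 0.0568). Under median scaling 2 were lower and 2 higher.

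A further 25 probes named for neighbouring parts of the system (F-box, RING finger, kelch and BTB adaptors, UBX domain proteins and a cullin regulator), of which 24 were tested, also come from the heat map file and are described by their counts. In F0 against C0, 14 were higher, 3 lower and 7 did not pass, with a median difference of 0.89, where 20.3% of all probes and 82.7% of the heat map probes passed. At RF4 against F0, 20 were lower, none was higher and 4 did not pass, with a median of -1.18, where 23.3% of all probes and 77.0% of the heat map probes passed. At RF4 against C0 the counts were 3 higher and 12 lower, with a median of -0.70, where 25.4% of all probes and 58.5% of the heat map probes passed. CAND1, which exchanges the substrate receptors of cullin ligases, had a higher level in F0, against C0 (limma, 1.65 ± 0.20, adjusted p = 4.98e-06), and lower at RF4 than in F0 (-1.01 ± 0.19, adjusted p = 0.000370). FBXO30, an F-box protein, did the same (1.41 ± 0.29, adjusted p = 0.00128, and -2.34 ± 0.27, adjusted p = 1.20e-06) and was then below C0 at RF4 (-0.93 ± 0.29, adjusted p = 0.0224). RNF220, a RING ligase, was lower in F0 than in C0 (-0.85 ± 0.22, adjusted p = 0.00737).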

How the data were processed

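Fast muscle RNA of 23 rainbow trout was hybridised to 1-colour Agilent arrays, a fish to each. The scanner intensity deposited by the authors is the processed signal of Agilent Feature Extraction 10.7.3.1 (version per the labels), after its background subtraction and before scaling between arrays. The median spot and background intensity served only for the normexp alternative. Quality flags deposited by the authors, which are no measurement of level, marked outlier spots and spots well above background. The authors' table of log2 values, from GeneSpring, is the same signal with 1 constant per array that makes the medians equal.

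Control spots and 145 outlier spots were dropped, replicate spots were averaged after log2, and each array was centred on its 75th percentile over 60195 probes. Tests ran on the 34200 probes that stood well above background in 4 or more fish of any group, all 26 members among them, and 137 probes with a missing value were left out. The model had a mean for every group (limma 3.58.1 under R 4.3.3, lmFit and eBayes, two-sided), and p-values were adjusted over all probes by Benjamini-Hochberg, with 0.05 as the threshold. Python 3.11.15 with pandas 2.3.3 served for the tables. On simulated data for RF4 against F0 (34200 probes, 200 changed), 39.5%, 93.5% and 99.0% of changes of 1, 2 and 4 log2 units were recovered. False calls numbered 8, 13 and 13 among 87, 200 and 211 calls. In the data 23.3% of all probes passed in that comparison, so the simulated shares do not carry over.

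Every member was named with its values. The members and lists were chosen with earlier results of these data known. Probe sequences were not used here, and symbols are those of the probe names. Alternatives covered the scaling, background correction, filter, slide, sample number, threshold, arrays left out, groups fitted and the methods' one-way ANOVA.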

Additional observations from a re-analysis of the deposited data

Results flagged for a closer look

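In 3 of the 130 sets of fish (26 members in 5 groups) a single fish lay far from the others of its group, where chance gives about 1 in 20. UBE2A read -0.82 in C0-1, against 0.56 to 0.78 in the other 3 controls. CBLL1 (Hakai) read -1.44 in C0-4, against -0.57 to -0.46 in the other 3 controls. MKRN1 (makorin-1) read 1.83 in RF4-4, against 0.70 to 0.93 in the other 4 RF4 fish.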

How the results depend on the processing

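Counts of members passing the threshold stayed within 1.5 times of the main count under every alternative run for the F test and for F0 minus C0, RF4 minus F0, RF11 minus F0, RF36 minus F0 and RF4 minus C0. For RF11 minus C0 the count of 15 was 9 at an adjusted p under 0.01. For RF36 minus C0 the count of 6 was 1 with only the groups compared and 3 at an adjusted p under 0.01. For RF36 minus RF4 the count of 9 was 4 under array median scaling, with the authors' deposited values and with no filter on dim probes, and 3 at an adjusted p under 0.01. When single arrays were dropped, the counts ran from 25 to 26 for the F test, 22 to 24 for F0 minus C0, 22 to 24 for RF4 minus F0, 23 to 24 for RF11 minus F0, 25 to 26 for RF36 minus F0, 14 to 15 for RF4 minus C0, 12 to 16 for RF11 minus C0, 3 to 8 for RF36 minus C0 and 4 to 10 for RF36 minus RF4. The low counts were 3 without C0-2 for RF36 minus C0, and 4 without RF4-3, 4 without RF36-4 and 5 without RF36-2 for RF36 minus RF4. The difference of UBR7 between RF11 and C0, where no fish of either group was well above background, was 0.03 as reported and -0.48 (adjusted p = 0.0254) with normexp background correction, and no called member changed sign under any alternative. The cause of these changes was not tested. The sample numbers name different fish and were not used to pair them in the main fit. Deviations of the 33 same-numbered pairs correlated between -0.322 and 0.347 (median 0.108, 16 pairs at or under 0.1). Different-numbered pairs had a lower median of -0.00992. With the replicate number as a block (consensus correlation 0.0459), the counts were 23 for F0 minus C0, 23 for RF4 minus F0, 24 for RF11 minus F0 and 15 for RF4 minus C0; this block changed the call of UBE2K in RF11 minus F0 (adjusted p = 0.0414) and of no other member in the 8 contrasts. Slide as a fixed block changed the call of UBE2K in RF36 minus RF4 alone. With 4 or 5 arrays a group, changes of about 1 log2 unit can be missed. How often was not measured at the share of changed probes seen here. Probes near background carry the least certain values.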
